A study of Mus musculus with 3 samples.

Results

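The IL-17, IL-22 and IL-23 axis was read in leukocytes of the mouse heart through 6 genes of the 32285 in the deposited tables. Il17a, Il17f and Il22 encode secreted cytokines, Il23a encodes the p19 chain of IL-23, Il23r its signalling receptor chain, and Il17ra the receptor chain shared by most IL-17 family ligands. The 6 genes were listed by symbol, and the list was chosen by a reading of the UMI counts of these genes in the same 3 libraries, so the levels below describe the libraries and test nothing. All counts of the 6 symbols were used.

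Cells sorted on the surface protein CD45 from hearts of C57BL/6J mice aged 8 to 9 weeks gave 1 droplet library in each of 3 groups, labelled Sham, MI and MI-E. What MI-E stands for is not spelled out, and a single surgery text, in which a coronary artery was ligated, is attached to every library including Sham. The time after surgery and the number of hearts behind a library are not given in the sources used here. With 1 library per group, no difference has a replicate check. A UMI marks a single captured RNA molecule. The libraries held 41140109 UMIs for Sham, 98814001 for MI and 104562768 for MI-E, and 10082, 8173 and 12005 cells passed the filters. Sham and MI had 35 cell barcodes in common, Sham and MI-E 45, and MI and MI-E 26.

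In the textbook account, IL-23 is made by myeloid cells as a pair of Il23a with the p40 chain, Il12b, and acts on lymphocytes that carry Il23r. Type 17 lymphocytes, among them T helper cells, innate lymphoid cells and gamma-delta T cells, then release IL-17A, IL-17F and IL-22. IL-17A and IL-17F bind Il17ra paired with Il17rc, mainly on fibroblasts, epithelium and endothelium, which answer with neutrophil-drawing chemokines and granulocyte growth factor, while IL-22 acts on non-blood cells that carry Il22ra1.

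Il17a lies on chromosome 1 at 20730905 to 20734496 of GRCm38 and Il17f on the same chromosome at 20777146 to 20790617, on the other strand. Il23r (67422932 to 67491855) and Il17ra (120463247 to 120487559) are on chromosome 6, and Il22 (118204942 to 118210047) and Il23a (128296139 to 128298752) on chromosome 10. RefSeq promoter windows, GRCm38.p6, were at hand for Il17a, Il17f, Il22 and Il23r, the 4 members read mostly in T cells. The 250 bases before the start are shown for the 3 that hold the nuclear receptor core motif AGGTCA, searched on both strands. They are given 5′ to 3′ on the gene's strand, and capitals mark AGGTCA or its other-strand form TGACCT.
Il17a, chr1:20730655-20730904, plus strand: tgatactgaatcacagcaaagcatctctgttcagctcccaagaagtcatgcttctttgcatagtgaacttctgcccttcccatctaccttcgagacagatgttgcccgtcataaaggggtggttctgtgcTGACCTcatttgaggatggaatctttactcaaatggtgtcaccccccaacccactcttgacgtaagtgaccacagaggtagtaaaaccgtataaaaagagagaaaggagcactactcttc
Il17f, chr1:20784271-20784520, minus strand: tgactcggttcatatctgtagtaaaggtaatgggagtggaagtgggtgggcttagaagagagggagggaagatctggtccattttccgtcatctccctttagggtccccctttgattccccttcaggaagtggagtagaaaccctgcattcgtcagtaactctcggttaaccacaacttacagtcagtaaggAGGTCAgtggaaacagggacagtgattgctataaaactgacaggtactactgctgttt
Il23r, chr6:67491856-67492105, minus strand: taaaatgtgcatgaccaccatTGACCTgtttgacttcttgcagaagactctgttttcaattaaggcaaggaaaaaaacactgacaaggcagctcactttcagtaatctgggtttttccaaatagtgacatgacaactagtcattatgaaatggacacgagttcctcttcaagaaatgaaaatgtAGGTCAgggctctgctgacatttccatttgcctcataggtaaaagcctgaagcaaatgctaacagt
The match lay 120 to 115 bases before the start in Il17a, 58 to 53 in Il17f, and at 66 to 61 and 229 to 224 in Il23r. The RefSeq start of Il17f lies inside the longer gene span above. Of 32851 such windows, 14.0% held the core, and the Il22 window did not. The letters TTCNNNGAA, bound by STAT factors, were in 7.02% of windows and in none of the 4, and TGANTCA, bound by AP-1, was in 6.75% and in that of Il17a (244 to 238 bases before the start).

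Il17a and Il22 transcripts came mostly from T cells, in few cells of each library, and Il17f only in part. Clusters were called T cells, monocyte-macrophage cells and so on from marker lists, with the 6 members left out of the clustering. The T cell class held 724 Sham, 73 MI and 270 MI-E cells, and all 10 T cell markers were present in each. T cells carried 7 of 7 Il17a UMIs kept in Sham, 114 of 115 in MI and 150 of 160 in MI-E. For Il22 they carried 9 of 10 UMIs in MI and 138 of 145 in MI-E, and Sham had 0 Il22 UMIs in all 11357 barcodes. For Il17f they carried 0 of 6 UMIs in Sham, 10 of 19 in MI and 22 of 29 in MI-E.

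On the CPM scale, a gene's share of all UMIs of the class in parts per 1e+06, Il17a in T cells was 2.60 in Sham (95% Poisson interval 1.05 to 5.36), 257 in MI (212 to 308) and 124 in MI-E (105 to 145). The 3 intervals do not overlap, and Sham is far below the others. All intervals cover counting error only. As a ratio, MI was 98.7-fold above Sham (46.4 to 251) and MI-E 0.481 times MI (0.375 to 0.620). The MI library enters both ratios. The MI level rests on very few cells, because 90 of its 114 UMIs lay in 2 cells, with 70 and 20. Without the 2 T cells with the most Il17a in each library, the level was 0.373 CPM for Sham, 56.2 for MI and 93.96 for MI-E, and the ratio of MI-E to MI turned to 1.67 (1.07 to 2.72).

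The share of T cells with Il17a gave another order. It was 0.414% in Sham (3 of 724 cells, exact interval 0.0855 to 1.21), 8.22% in MI (6 of 73, 3.08 to 17.04) and 13.3% in MI-E (36 of 270, 9.52 to 18.0). The intervals of MI and MI-E overlap, and both lie above that of Sham. Thinned to 1500 UMIs per cell, the shares were 0.298%, 8.33% and 10.5%. B cells, which should lack the gene, held Il17a in none of 2972 cells for Sham, 48 for MI and 316 for MI-E, which allows shares of up to 0.101%, 6.25% and 0.949%. Median depth was 3609, 3893 and 3842 UMIs in the T cells against 2299.5, 2205 and 2165.5 in the B cells. A T cell with Il17a held a median of 1 UMI for Sham, 10 for MI and 2 for MI-E, and the most in a cell was 5, 70 and 25. The T cell class differed in make-up between libraries. CD8 T-like cells, which held no Il17a, were 47.9% of Sham T cells, 21.9% of MI and 11.9% of MI-E. The part of this make-up in the Il17a shares was not tested.

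By UMI level, Il22 was the member that most set MI-E apart among T cells. Its level was 0 in Sham, 20.3 CPM in MI (9.27 to 38.5, 9 UMIs in 2 cells) and 114 CPM in MI-E (95.5 to 134, 138 UMIs in 22 cells). MI-E was 5.61-fold above MI (2.87 to 12.5) and at least 102-fold above Sham, taken against 3 counts over the class. Without the 2 T cells with the most Il22 in each library, that bound was at least 59.0, and MI had 0 UMIs, so the ratio to MI could not be formed. The 2 MI cells held every Il22 UMI of the MI T cells, whereas the 2 highest MI-E cells held 42.8% of theirs. By cells, Il22 was in 2 of 73 T cells of MI and 22 of 270 of MI-E. That contrast is smaller than the one by UMIs and rests on 2 MI cells. Il17f was 0 in Sham T cells, 22.5 CPM in MI (10 UMIs in 2 cells) and 18.1 CPM in MI-E (22 UMIs in 10 cells), with a ratio of MI-E to MI of 0.805 (0.366 to 1.90). Outside T cells Il17f came as single UMIs, 5 in Sham monocyte-macrophage cells, 9 in MI and 4 in MI-E, and the remaining Sham UMI lay in 1 B cell.

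**Figure D1:**
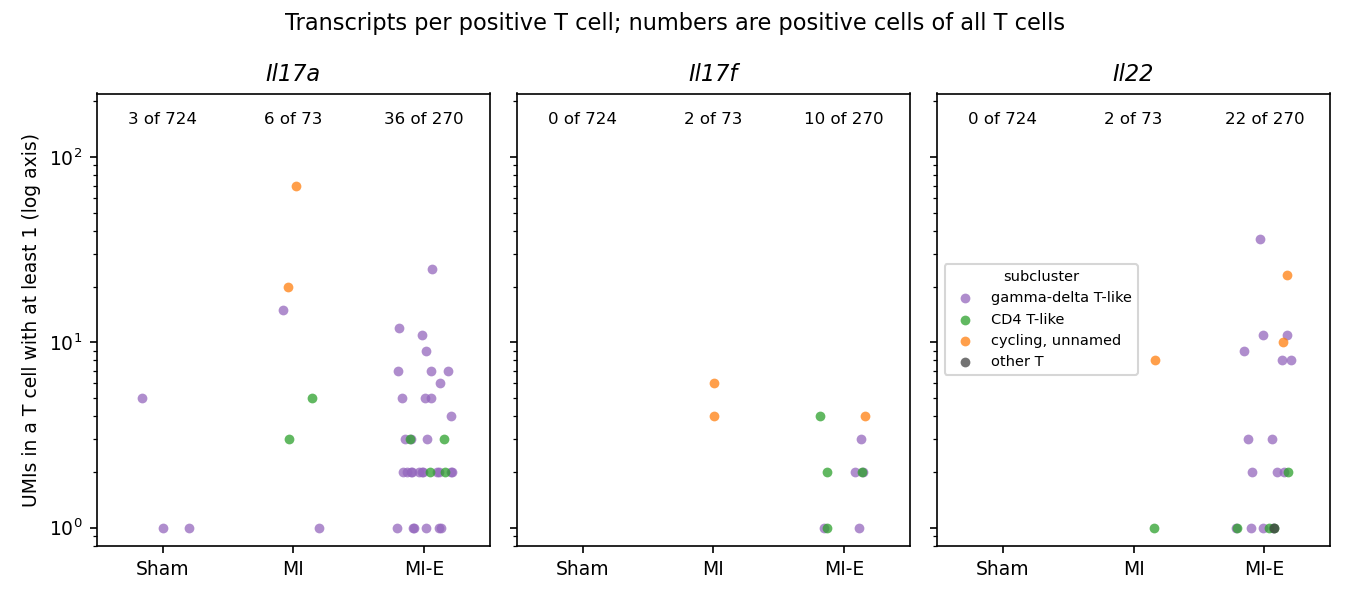
Il17a, Il17f and Il22 UMIs (log axis) in each T cell that holds at least 1, by library, with a point per cell coloured by subcluster; the numbers above are cells with the gene of all T cells. In MI the 2 highest Il17a cells, with 70 and 20 UMIs, belong to the cycling subcluster, while 32 of the 36 MI-E cells with Il17a and 15 of the 22 with Il22 belong to the gamma-delta T-like one.

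In MI-E most Il17a and Il22 of T cells lay in a gamma-delta T-like subcluster, while in MI most lay in a cycling one. The leading genes of the gamma-delta T-like subcluster held 5 gamma-delta markers, among them Trdc, the delta-chain constant gene, and Cd163l1, a scavenger receptor of these cells. With 9 Sham cells it made up 1.24% of T cells (0.570 to 2.35). The 4 MI cells made up 5.48% (1.51 to 13.4) and the 77 cells of MI-E 28.5% (23.2 to 34.3). In MI-E it held 140 of the 150 Il17a UMIs and 99 of the 138 Il22 UMIs, but 9 of the 22 of Il17f. In MI it held 16 of 114 Il17a UMIs and 0 of Il17f and Il22, against 90, 10 and 8 in the cycling subcluster. All 7 Sham UMIs of Il17a lay in 3 of the 9 gamma-delta T-like cells.

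Of the 77 MI-E cells, 32 held Il17a (41.6%, 30.4 to 53.4), 15 held Il22 (19.5%, 11.3 to 30.1), 6 held both and 36 held neither. Median depth was 3897 UMIs in the cells with Il17a and 4097 in those without. Gamma or delta constant transcripts were found in 55 of the 77 cells, and 10 held Trac, the alpha-chain constant gene, with neither. Of the 32 with Il17a, 25 had a gamma or delta transcript and 2 had Trac alone. Trdc itself was in 33 of the 77 cells and Trac in 26. A gamma or delta transcript was thus found in most but not all cells of the subcluster, and some of these also held Trac.

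CD4 T-like cells held smaller numbers. In MI-E, 45 such cells held 10 Il17a UMIs in 4 cells, 9 Il17f UMIs in 4 and 5 Il22 UMIs in 4. In MI, 2 of 16 held Il17a with 8 UMIs, and in Sham 0 of 40 did. Type 2 innate lymphoid-like cells, 32 in Sham and 2 in MI-E, had 0 UMIs of Il17a, Il17f, Il22 and Il23r. CD8 T-like cells had 0 UMIs of all 3 cytokines in the 347 Sham, 16 MI and 32 MI-E cells. The cycling subcluster, led by histone genes and Top2a and left unnamed, held the 2 highest Il17a cells of MI. The cell with 70 UMIs also held 18 Trdc and 11 Tcrg-C1 UMIs, 4 of Il17f and 1 of Il23r. The cell with 20 also held 8 of Il22, 2 of Trac and 1 of Tcrg-C1. In MI-E, 14 cycling T cells held 0 Il17a but 33 Il22 UMIs, in 2 cells.

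Genes found in the same T cells as Il17a were ranked by phi, the correlation of presence, over all 1067 T cells of the 3 libraries, which share library and depth. Tmem176a, a membrane channel gene of type 17 cells, came first, with phi of 0.463. It was in 91.1% of the 45 cells with Il17a and in 10.8% of the rest. Next were 1700012B07Rik (31.1% against 0.685%), Actn2, which encodes an actinin (80.0% against 9.00%), and Blk, a kinase of gamma-delta type 17 cells (53.3% against 3.62%). Tcrg-C1 followed at 53.3% against 3.82%, the leukotriene receptor Ltb4r1 at 66.7% against 6.56%, and Tmem176b at 88.9% against 12.6%. The IL-1 receptor Il1r1 was in 46.7% against 3.03%, Gm9961 in 37.8% against 1.76%, and the protease inhibitor Serpinb1a in 62.2% against 6.56%.

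The list of type 17 programme genes, 20 in all, was higher in T cells of MI than of Sham, and mostly higher again in MI-E. The list was drawn up with earlier results of these data known. The ratios compare class sums, and the make-up of the class differed. Cycling cells were 23.3% of MI T cells, against 0.414% for Sham and 5.19% for MI-E. The MI ones held 208767 UMIs, and CD4 T-like cells, the next highest MI group, 70487. Blk, 5830411N06Rik, Cd163l1, Tmem176a and Ltb4r1, all on the list, were also leading genes of the gamma-delta T-like subcluster. Blk, 5830411N06Rik and Cd163l1 were also among the markers that named it. That subcluster was 1.24% of Sham T cells and 28.5% of MI-E ones. The part of this make-up in the ratios was not tested. A gene was measured at a mean of 5 CPM or more and called at 1.5-fold. From Sham to MI, 16 of 16 measured genes were higher, where 36.4% of 8034 genes were higher and 14.6% lower. The median log2 ratio of CPM + 1 was 1.94 for the list and 0.27 for all genes. From Sham to MI-E 17 of 18 were higher, where 32.4% of 8097 genes were higher and 8.66% lower. From MI to MI-E, 14 of 18 were higher and 1 lower, where 22.2% of 8347 genes were higher and 19.2% lower, with medians of 1.10 and 0.03.

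Blk in MI was 7.79-fold above Sham (2.58 to 24.6) and again 3.82-fold higher in MI-E (1.93 to 8.61). The chemokine receptor Cxcr6 was 6.33-fold higher in MI than in Sham, and the smallest ratios of the list were those of Il18r1 (1.79), Ikzf3 (1.82) and Batf (1.92). In MI-E over MI the highest were 5830411N06Rik, a scavenger receptor gene of gamma-delta cells (11.2-fold, 3.72 to 55.4), Blk, and the chemokine receptor Ccr6 (3.66-fold on 20 and 2 UMIs, 0.889 to 32.3). The lowest were Batf, at 0.549 times MI (0.344 to 0.887), Ahr at 0.665 and Irf4 at 0.823, all transcription factors of type 17 differentiation. Macrophage markers summed to 151, 360 and 1210 CPM in the T cells of Sham, MI and MI-E, and neutrophil markers to 587, 36.0 and 385. Their part in these ratios was not tested.

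Of the other T cell cytokines, Ifng, the signature of type 1 cells, took another course from Il22. It was 35.3 CPM for Sham, 187 for MI and 51.9 for MI-E, so MI-E was 0.278 times MI (0.197 to 0.390). The part of the differing T cell make-up in this ratio was not tested. Il10 had 2 UMIs in MI and 29 in MI-E, and the list of lymphocyte cytokines had 5 of 6 measured genes higher and 1 lower in MI-E against MI, beside 22.2% and 19.2% of all genes.

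By level per UMI, Il23a was highest in neutrophils in MI and MI-E, and these held almost no Il12b, its partner. In neutrophils Il23a was 2.51 CPM in Sham (0.304 to 9.08, 2 UMIs), 145 in MI (120 to 173, 120 UMIs) and 138 in MI-E (130 to 146, 1120 UMIs). The ratio of MI-E to MI was 0.9502 (0.787 to 1.16), and both lie far above Sham. That ratio depends on which cells count as neutrophils. It was 1.46 (1.27 to 1.68) with classes from single-cell markers and 1.90 (1.66 to 2.18) with unnamed cluster 13 counted in. MI over Sham was 57.6 (15.6 to 481). Cells with Il23a were 0.476% of Sham neutrophils (2 of 420), 13.9% of MI (50 of 360) and 15.8% of MI-E (476 of 3004). Thinned to 1500 UMIs, the shares were 0.310%, 10.9% and 11.5%. The background share in B cells was 0.0673% in Sham, 0 of 48 in MI, which allows up to 6.25%, and 0.949% in MI-E (3 of 316). Median depth was 1740.5, 1764.5 and 2106.5 UMIs in neutrophils of Sham, MI and MI-E.

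Different clusters filled the class. Cluster 4, led by Retnlg and the granule genes Ngp and Camp, held 396 of 420 Sham neutrophils, and cluster 19, led by Cstdc4 and G0s2, held 343 of 360 in MI and 2967 of 3004 in MI-E. Cluster 19 carried every neutrophil Il23a UMI of MI and MI-E, at 150 and 139 CPM. Cluster 4 held 0 UMIs in its 17 MI and 37 MI-E cells and 2 in its Sham cells. The 24 Sham cells of cluster 19 held 0, which allows a share of up to 12.5%. Sham and the other 2 libraries can therefore not be compared within the same kind of neutrophil. In MI-E, 255 of the 476 positive cells had a single UMI and 55 had 5 or more, up to 16. Positive cells were deeper, with a median of 3041.5 UMIs against 2038 in the others, and in MI 2531 against 1699.

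Unnamed cluster 13, with transcripts of neutrophils and monocytes, also held Il23a, at 39.0 CPM in MI (32.8 to 46.0) and 43.3 in MI-E (36.3 to 51.3). Its cells were deeper than neutrophils, with medians of 9919 UMIs in MI and 9415 in MI-E. Il23a was in 56 of its 327 MI cells and 57 of its 307 MI-E cells, shares no lower than in neutrophils. Of the kept Il23a UMIs, neutrophils carried 2.82% for Sham, 27.3% for MI and 75.4% for MI-E. Monocyte-macrophage cells carried 67.6%, 35.9% and 11.9%, and cluster 13 none, 32.0% and 9.02%, so in MI neutrophils carried the least of the 3. The level in monocyte-macrophage cells had overlapping intervals, at 2.22 CPM in Sham (1.63 to 2.94), 2.11 in MI (1.79 to 2.46) and 2.38 in MI-E (2.04 to 2.76). MI over Sham was 0.951 (0.685 to 1.34) and MI-E over MI 1.13 (0.906 to 1.41). Clusters within the class differed. MI-E over MI was 2.08 (1.14 to 4.01) in cluster 16 and 2.44 (1.17 to 5.36) in cluster 21. It was 0.423 (0.278 to 0.636) in cluster 22, and in the other clusters compared the interval spanned 1. Cluster 22, led by Arg1, Saa3 and Cxcl3, was at 9.97 CPM in MI (7.71 to 12.7), the highest of the MI monocyte-macrophage clusters with more than 3 UMIs, and at 4.22 in MI-E (3.01 to 5.75), where cluster 20, led by Ms4a7 and Ccl8, was at 4.45 (2.64 to 7.04).

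**Figure D2:**
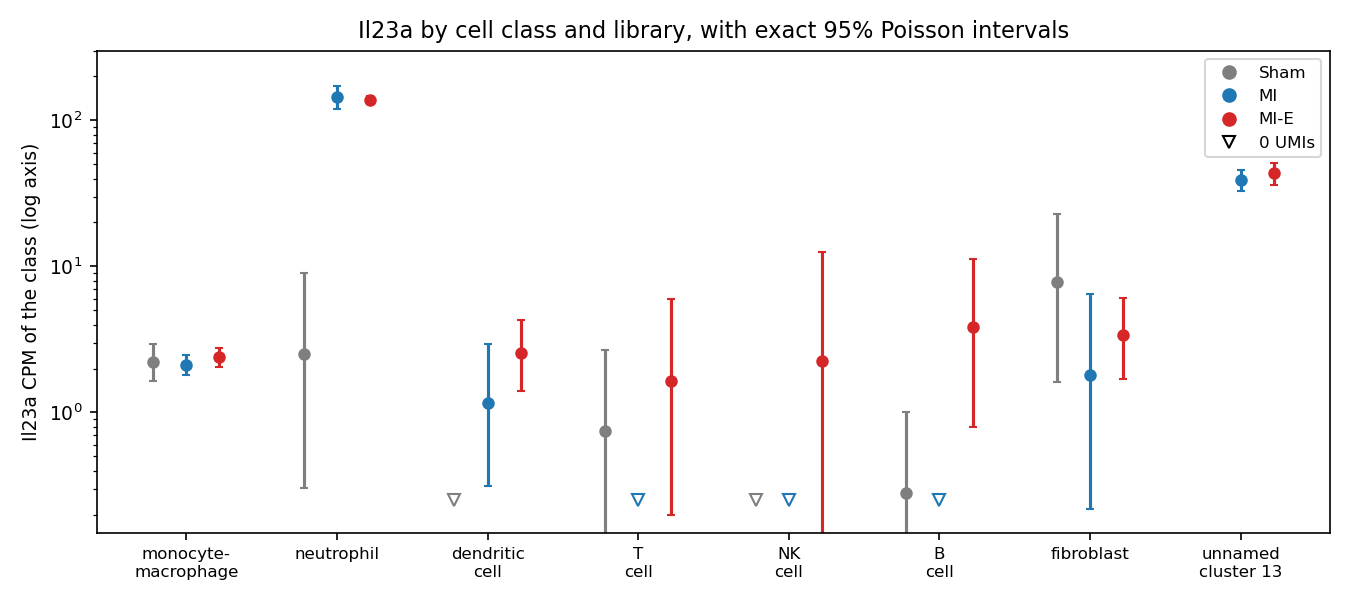
Il23a in CPM of the class (log axis) by cell class and library, for classes of at least 30 cells, with exact 95% Poisson intervals; open triangles mark 0 UMIs, and bars that leave the axis run on below it. By CPM, MI and MI-E neutrophils, at 145 and 138, stand above all other classes shown, followed by unnamed cluster 13, whose cells are deeper.

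Across 27 pairs of class and library, the genes with levels most like Il23a among 5117 were Gpr84, a fatty acid receptor (Pearson r of log2 CPM + 1, 0.875), Alas1, an enzyme of haem synthesis (0.852), the protease Mmp9 (0.831), Cstdc4 (0.828) and Acsl1, a lipid enzyme (0.825). The points share libraries and class depth, so the values are descriptive.

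The p40 chain was found elsewhere. Il12b had 0 UMIs in Sham and MI neutrophils and 1 in the 3004 of MI-E. In dendritic cells it had 18 UMIs in 4 of 120 Sham cells, 63 in 8 of 350 MI cells and 36 in 8 of 549 MI-E cells. The level in dendritic cells was 21.1, 18.2 and 6.58 CPM, and MI-E was 0.361 times MI (0.233 to 0.552). The most Il12b in a dendritic cell was 9, 21 and 11 UMIs. These levels thus rest on few cells, and the interval does not cover the spread between cells. Ccr7, the receptor of migratory dendritic cells, was also present in 6 of the 8 MI cells and 8 of the 8 MI-E cells, and in 0 of the 4 Sham cells. Of all dendritic cells, 128 of 350 in MI, 228 of 549 in MI-E and 22 of 120 in Sham held Ccr7. Il23a in dendritic cells came to 0, 4 and 14 UMIs, each in a cell of its own, and no neutrophil or dendritic cell held both chains. At these counts a cell that makes both could be missed.

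Among cytokines that induce type 17 cells, Il1b and Il1a were also high in neutrophils. Il1b was 1487 CPM in Sham neutrophils, 11539 in MI and 10843 in MI-E, and Il1a 11.3, 408 and 525. All 3 measured genes of that list were at least 1.5-fold above Sham in MI neutrophils, where 41.2% of 6590 genes were higher and 16.6% lower. In monocyte-macrophage cells 3 of 5 were higher in MI-E than in MI, where 4.07% of 8102 genes were higher and 4.7% lower. These were Il1b (1.83-fold), Il18 (1.68-fold) and Il1a (1.63-fold), and Il6 was 0.684 times MI.

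Il23r was close to the limit of detection. T cells held 2 UMIs in Sham (0.744 CPM), 1 in MI (2.25) and 12 in MI-E (9.89, 5.11 to 17.3). Over the whole T cell class, MI-E over Sham was 13.3 (2.96 to 122) and MI-E over MI 4.39 (0.649 to 188). Only the first of these class ratios differs beyond counting error. In MI-E, 11 of the 12 UMIs were in 7 gamma-delta T-like cells (9.09%, 3.73 to 17.8). Both Sham UMIs were in that subcluster as well, in 2 of its 9 cells (22.2%, 2.81 to 60.0). Within the subcluster the level was 44.1 CPM in Sham (5.34 to 159) and 34.0 in MI-E (16.9 to 60.7), with overlapping intervals. The part of the T cell make-up in the class ratios was not tested. Of the 8 MI-E T cells with Il23r, 3 also held Il17a and 0 held Il22. The rest of the library gave stray counts, 3 UMIs in Sham and 1 each in MI and MI-E. Its partner Il12rb1 had 6, 3 and 13 UMIs in T cells of Sham, MI and MI-E.

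On the receiver side, Il17ra was found in every leukocyte class, and among pooled named classes its level per UMI was highest in neutrophils. Within Sham the order was neutrophils at 56.5 CPM (41.2 to 75.6), T cells at 38.3 (31.3 to 46.4), B cells at 36.2, NK cells at 34.0, monocyte-macrophage cells at 28.3 (26.1 to 30.6) and dendritic cells at 22.2. The interval of neutrophils overlaps that of T cells, and T, B and NK cells do not differ beyond their intervals. In MI, neutrophils at 105 CPM (84.1 to 129) stood above T cells at 40.5 (24.0 to 64.1) and monocyte-macrophage cells at 37.2 (35.9 to 38.6), and dendritic cells were at 17.4. In MI-E, neutrophils were at 112 (105 to 120), T cells at 65.9 (52.3 to 82.0), monocyte-macrophage cells at 58.4 (56.7 to 60.2), NK cells at 40.6 and dendritic cells at 25.2 (21.2 to 29.8). In MI and in MI-E the intervals of T cells and monocyte-macrophage cells overlap, while neutrophils stand clear of both. Counted per cell, monocyte-macrophage cells held more Il17ra than the shallower neutrophils in each library. They held 612 UMIs in 3910 cells of Sham, 2790 in 6643 of MI and 4317 in 6773 of MI-E. Neutrophils held 45 in 420, 87 in 360 and 912 in 3004.

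Monocyte-macrophage cells had more Il17ra in MI than in Sham, by 1.32-fold (1.21 to 1.44), and more again in MI-E than in MI, by 1.57-fold (1.495 to 1.65). The second ratio passes the 1.5-fold line that 4.07% of the 8102 genes measured in these cells passed upward. It was under that line with each library clustered alone (1.46) and as the geometric mean within clusters (1.40). The cells with Il17ra were 12.7%, 30.7% and 41.0% of the class, or 3.96%, 5.74% and 8.74% once thinned to 1500 UMIs. Clusters 2 and 3 made up most of the Sham class, and clusters 21 and 16 were the largest in MI and 16 and 21 in MI-E. Monocyte markers summed to 504, 1277 and 3632 CPM in the class and neutrophil markers to 387, 165 and 380.

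Within clusters MI-E was above MI in 8 of 8 that had 50 cells in both, by 1.15-fold to 1.77-fold, and the interval lay above 1 in 7. In cluster 21, led by Gpnmb and Fabp5, the lipid-handling macrophages, Il17ra was 35.1 CPM in MI (32.8 to 37.5) and 53.6 in MI-E (50.4 to 56.9). In cluster 16, led by Ms4a4c and Cfb, it was 39.9 and 57.6, and in the interferon-response cluster 7, 30.9 and 54.7. The classical monocytes of cluster 12 held 65.0 CPM for Sham, 57.6 for MI and 74.3 for MI-E, and the cycling cluster 5, whose interval spans 1, 29.6 and 35.9. The geometric mean of the 8 ratios was 1.40. For MI over Sham the 2 clusters with enough cells gave 1.25 (1.00 to 1.56) in cluster 2 and 0.886 (0.666 to 1.19) in cluster 12, with a mean of 1.05. Nonclassical monocytes, cluster 15 with Treml4, had the highest level of any monocyte-macrophage cluster with 50 cells, 172 CPM in Sham (131 to 221) and 121 in MI-E (82.2 to 172).

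**Figure D3:**
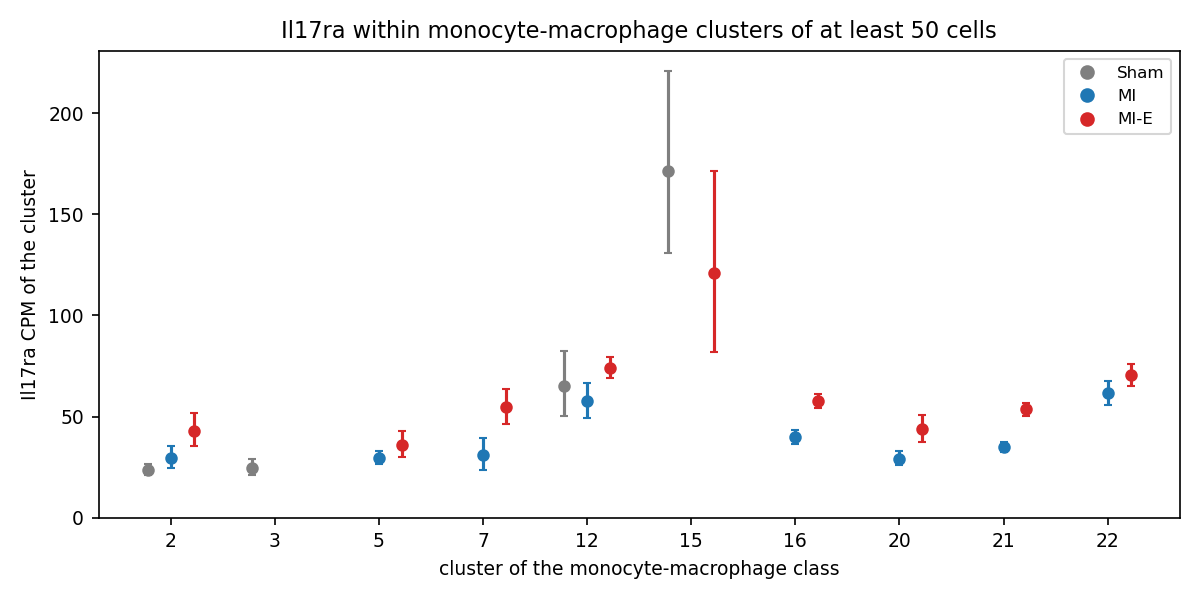
Il17ra in CPM of the cluster for each monocyte-macrophage cluster and library with at least 50 cells, with exact 95% Poisson intervals. MI-E lies above MI in all 8 clusters where both are shown, and cluster 15 is the highest.

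Neutrophil Il17ra in MI was 1.86-fold above Sham (1.28 to 2.72), across the change from cluster 4 to cluster 19, and MI-E over MI was 1.07 (0.856 to 1.35). With classes from single-cell markers these were 1.26 (0.942 to 1.72) and 1.36 (1.19 to 1.57), and with cluster 13 counted in 1.13 (0.836 to 1.55) and 1.56 (1.38 to 1.78), so the excess over Sham was then within counting error. Within cluster 19 it was 104 CPM in MI and 112 in MI-E. T cells were at 1.63 for MI-E over MI (0.966 to 2.88) and 1.72 for MI-E over Sham (1.27 to 2.33). Dendritic cells were at 1.45 for MI-E over MI (1.07 to 2.00).

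**Figure D4:**
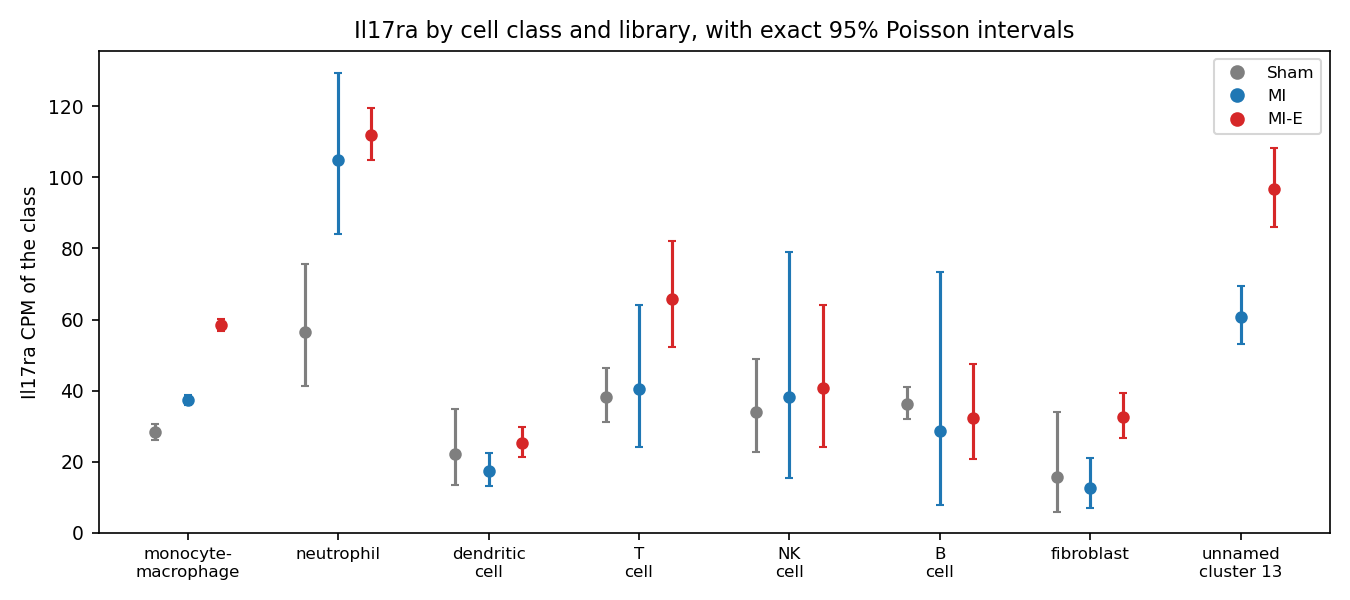
Il17ra in CPM of the class by cell class and library, for classes of at least 30 cells, with exact 95% Poisson intervals. By CPM, though not by UMIs per cell, neutrophils are highest in each library among the named classes. MI-E lies above MI in monocyte-macrophage cells, at 58.4 against 37.2 CPM.

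Levels of Il17ra across 27 pairs of class and library were most like those of Chd7 (Pearson r of log2 CPM + 1, 0.879), a chromatin remodeller, and Orai2, a calcium channel (0.877), among 5116 genes. Zc3h12a, which encodes the RNA-degrading enzyme Regnase-1, came next (0.866), then the TNF receptor Tnfrsf1b (0.861) and the formin Diaph1 (0.856). The same limits hold as for Il23a.

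The second receptor chain, Il17rc, was nearly absent from leukocytes. Monocyte-macrophage cells held 8, 3 and 11 UMIs of Il17rc in Sham, MI and MI-E, neutrophils 0, 0 and 1, and dendritic cells 0 in each. The few fibroblasts in the sort, which CD45 should exclude, carried both chains. They numbered 48 for Sham, 66 for MI and 141 for MI-E. Their Il17rc was 15.7, 8.97 and 18.0 CPM, with MI-E over MI of 2.00 (1.02 to 4.40), and their Il17ra 15.7, 12.6 and 32.5 CPM, with 2.59 (1.48 to 4.90). Il17re, the chain that pairs with Il17ra to bind IL-17C, was read in T cells at 2 UMIs for Sham, 2 for MI and 36 for MI-E, and 23 of those 36 were in gamma-delta T-like cells. Il17d, another family ligand, came to 22, 13 and 14 UMIs in fibroblasts. Il22ra1 had 0 UMIs in monocyte-macrophage cells, neutrophils, dendritic cells and T cells of all 3 libraries, while its partner Il10rb, which also serves IL-10, was at 387, 297 and 305 CPM in neutrophils.

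Genes downstream of the IL-17 receptor were read from lists. In monocyte-macrophage cells 0 of 6 measured signalling genes and 0 of 7 feedback regulators passed 1.5-fold in either direction between MI and MI-E, where 4.07% of all genes were higher and 4.7% lower, so these counts are no result about the lists. By ratio alone 5 of the 6 and all 7 were above 1. The share of all genes above 1 was not counted, so these counts are no result either. Rela (1.44), Nfkb1 (1.39) and Traf6 (1.30) were the highest signalling genes, and the list medians were 0.35 and 0.30 on the log2 scale against 0.02 for all genes. The adaptor Traf3ip2, which binds the receptor, was at 0.462, 0.894 and 0.568 CPM in Sham, MI and MI-E.

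Of 20 textbook IL-17 target genes, 16 were measured in monocyte-macrophage cells. From MI to MI-E 5 were higher and 0 lower, where 4.07% of all genes were higher and 4.7% lower, with a median of 0.33. The highest were Lcn2, an iron-binding protein (3.44-fold), and the alarmins S100a9 (2.74-fold) and S100a8 (2.32-fold), all 3 of them neutrophil markers too. The neutrophil marker sum of the class was 165 CPM in MI and 380 in MI-E, and its part in these 3 ratios was not tested. Csf3, granulocyte growth factor, was 1.81-fold higher and the prostaglandin enzyme Ptgs2 1.56-fold. Mmp13, at 1.53-fold on CPM, was under the line on CPM + 1. The lowest were Il6 (0.684), Cebpd (0.994) and Ccl7 (1.00). From Sham to MI 3 were higher and 7 lower, where 24% of 8444 genes were higher and 17.7% lower. Ptgs2 (11.0-fold), Cxcl3 (4.77-fold) and Csf3 (4.76-fold) led, and Cebpd, Mmp13 and S100a9 were 8.88-fold, 8.42-fold and 4.08-fold lower.

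In fibroblasts, the class with both receptor chains, 9 of 19 targets were higher and 3 lower in MI-E than in MI, where 12.3% of 9621 genes were higher and 8.91% lower. Csf3 was 8.55-fold higher (4.25 to 20.1), from 7.17 to 61.3 CPM, and the neutrophil chemokine Cxcl5 5.74-fold (4.78 to 6.95), from 108 to 623 CPM. S100a9 was 3.50-fold higher and the matrix protease Mmp3 2.80-fold (2.33 to 3.39). Mmp13 had 17 UMIs in MI and 4 in MI-E, Csf2 was 0.478 times MI (0.281 to 0.825) and Cxcl3 0.554 times. The list's median was 0.32 against 0.04 for all genes, so the list as a whole was split. Neutrophil markers summed to 246 CPM in MI fibroblasts and 624 in MI-E, and macrophage markers to 2970 and 3567. S100a8, S100a9 and Lcn2 are on the neutrophil list and Csf3, Cxcl5 and Mmp3 are not, but Csf3 was also higher in MI-E monocyte-macrophage cells. The part of RNA from other cells in these fibroblast ratios was not tested.

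**Figure D5:**
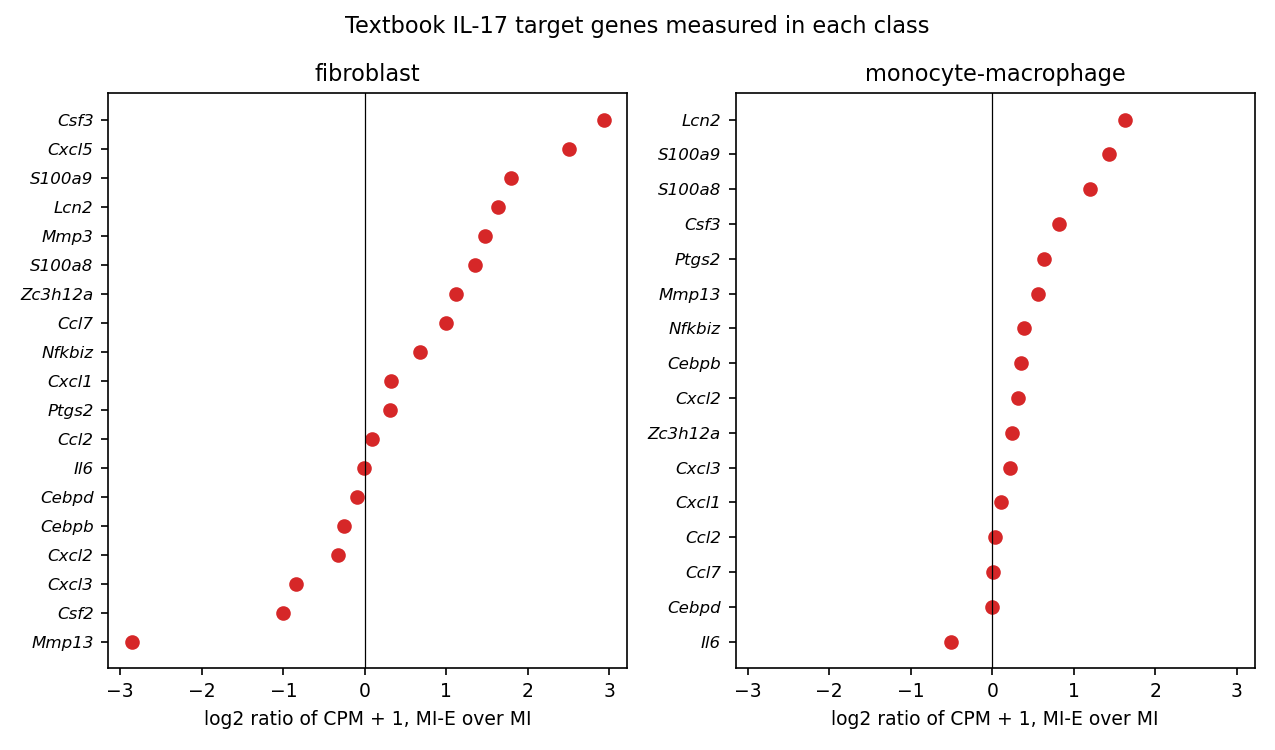
Log2 ratio of CPM + 1, MI-E over MI, of each measured IL-17 target gene in fibroblasts and in monocyte-macrophage cells, with a point per gene. Csf3 and Cxcl5 lead in fibroblasts, Lcn2, S100a9 and S100a8 in monocyte-macrophage cells, and Mmp13 is the lowest fibroblast value.

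In neutrophils 1 of 14 measured targets, Lcn2 (1.53-fold), was higher in MI-E than in MI and 0 lower, where 8.78% of 6904 genes were higher and 13.3% lower. From Sham to MI 8 were higher and 4 lower, across the change of clusters, where 41.2% of all genes were higher and 16.6% lower. Cxcl1 (30.8-fold, on 8 and 257 UMIs) and Cxcl3 (16.4-fold) led, and Lcn2, S100a9 and S100a8 were 3.76-fold, 3.40-fold and 3.20-fold lower. From Sham to MI-E 7 neutrophil targets were higher and 3 lower, where 37.2% of 6596 genes were higher and 16.3% lower.

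Other classes moved too. From MI to MI-E 10 of 12 measured targets were higher in T cells and 0 lower. Of 8347 genes there, 22.2% were higher and 19.2% lower. The log2 medians were 2.05 for the list and 0.03 for all genes. From Sham to MI 5 of 11 were higher in T cells and 3 lower, where 36.4% of 8034 genes were higher and 14.6% lower. From Sham to MI-E 8 of 12 were higher and 2 lower, where 32.4% of 8097 genes were higher and 8.66% lower. In dendritic cells 6 of 13 targets were higher and 2 lower from Sham to MI, where 27.7% of 7454 genes were higher and 12.3% lower, and 2 were higher and 4 lower from MI to MI-E, where 8.02% of 7598 were higher and 4.25% lower. NK cells had 7 of 11 higher from Sham to MI-E, where 21.3% of 8305 genes were higher and 20.4% lower. B cells, compared between MI-E and Sham, had 10 of 11 measured targets higher and 1 lower, where 13.2% of 7778 genes were higher and 13.5% lower. Among them were Ptgs2 (1.26 and 59.3 CPM in Sham and MI-E) and Cxcl3 (1.40 and 52.9), genes abundant in myeloid cells. The part of free RNA in the target gene ratios was not tested.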

How the data were processed

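The authors deposited filtered tables of raw UMI counts per gene and cell barcode for 3 droplet libraries (10x 3′ chemistry), made with Cell Ranger 5.0.1 on mm10, per the submitters' processing notes. Cells with under 200 genes or over 10% mitochondrial counts were removed (in the order Sham, MI, MI-E: 60, 48 and 31 cells, then 192, 216 and 397). Cells marked as doublets, 1026, 658 and 275, were left out. The doublet caller's own threshold marked almost none in Sham and MI, where the expected rate of 0.8% per 1000 cells set the number.

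The 3 libraries were clustered together (scanpy 1.11.5, leidenalg 0.10.2, 2000 variable genes without the 6 members, 30 components, resolution 1) into 23 clusters. A cluster was named from marker lists, with cut-offs set once the clusters had been seen. The members and all gene lists were chosen with earlier results of these data known. Named genes were the members, the top and bottom genes of each list, and the genes most like a member.

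Counts were summed by class and library. Levels are CPM of the class, with exact Poisson 95% intervals, shares have exact Clopper-Pearson intervals, and ratios exact conditional binomial intervals (scipy 1.17.1). A count of 0 was set to an upper limit of 3 counts. Genes with a mean of 5 CPM or more entered the counts at 1.5-fold, on CPM + 1. There was 1 library per group, so no test was run and no p-value is given. The scripts were checked on simulated data. Alternatives included no doublet removal, 5% mitochondrial counts, resolution 2, each library clustered alone, classes from single-cell markers and TMM factors (edgeR 4.0.16). Median depth per barcode was 2727, 9604 and 7287 UMIs. A member of the type 17 list is not reported here.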

Additional observations from a re-analysis of the deposited data

Results flagged for a closer look

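Clusters left unnamed, and so outside the class comparisons, held Il17ra and Il23a above the level of the whole Sham library. That level was 30.3 CPM for Il17ra (upper bound 32.1) and 1.92 CPM for Il23a (upper bound 2.42). Cluster 13, with transcripts of neutrophils and monocytes, had Il17ra at 60.8 CPM in MI (53.1 to 69.4, 327 cells) and 96.7 CPM in MI-E (86.1 to 108, 307 cells). Its Il23a stood at 39.0 CPM (MI) and 43.3 CPM (MI-E). Cluster 14, led by Gm26917, Lars2 and other genes that name no cell type, had Il17ra at 105 CPM in MI-E (70.2 to 150, 29 UMIs in 225 cells). Its cells were very shallow, with a median of 0.121 times the median depth of their library. Cluster 6, led by endothelial genes such as Cdh5 and Cldn5, had Il23a at 5.53 CPM in MI-E (3.43 to 8.46, 21 UMIs), and its ratio of MI-E to Sham was 0.909 (0.372 to 2.53).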

How the results depend on the processing

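Of 150 alternative values over 23 results, 133 stayed within the main value's counting interval (for a bound, within 1.5-fold), 16 moved outside it, and 1 turned a ratio whose interval excluded 1. Some ratios whose interval spans 1, such as Il23a in MI-E over MI in neutrophils, also crossed 1. Without the 2 T cells with the most UMIs in each library, Il17a in MI-E over MI turned to 1.67 and over Sham became 252, and Il22 in MI-E over Sham became at least 59.0. For Il17ra in monocyte-macrophage cells, clustering each library alone gave 1.46 for MI-E over MI and 1.90 over Sham. TMM factors gave 1.48 (MI over Sham) and 2.35 (MI-E over Sham). Geometric means within clusters gave 1.05 (MI over Sham), 1.40 (MI-E to MI) and 1.14 (MI-E to Sham), and for Il23a in MI-E over Sham 1.90, from 2 clusters, of which cluster 15 had 3 and 1 UMIs. For Il17ra in neutrophils, classes from single-cell markers gave 1.26 from Sham to MI and 1.36 from there to MI-E, and counting cluster 13 as neutrophils 1.13 and 1.56. The same settings put Il23a in MI-E over MI at 1.46 and 1.90. The causes were not tested. The settings without the top cells, within clusters and with cluster 13, and those for Il22 and Il23a in neutrophils, were chosen after seeing the data. With each library clustered alone, 0 MI cells were named T cells, so Il17a, Il22 and Il23r have no MI value there. Without the top 2 cells MI has 0 Il22 UMIs, so Il22 ratios with MI were not formed. No paired analysis was possible because each group has 1 library. Il23r, Il12b and Il17f rest on few UMIs.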
